A study of Mus musculus with 10 samples.

Results

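The comparison set SSEA1-sorted cells at day 9 of induced reprogramming against uninduced fibroblasts of the same genotype. Its members were all libraries labelled day 9 and all labelled MEF, 2 a group, which made 4 of the 10 libraries of the series. Both groups came from mouse embryonic fibroblasts (MEFs) of a C57BL/6 x 129 background with the genotype OKSM Col1a1/M2rtTA ROSA26. The Col1a1 locus of these cells holds a polycistronic cassette of Oct4 (Pou5f1), Klf4, Sox2 and Myc, and the Rosa26 locus expresses the transactivator M2rtTA that switches the cassette on when doxycycline is given. The MEF libraries came from unsorted cells in MEF medium without doxycycline. The day 9 libraries came from cells kept in ESC medium with doxycycline at 1 µg/ml and ascorbic acid at 50 µg/ml, and then sorted; the sample labels write SSEA+ and the series' design text SSEA1, which is the name used here. Cassette induction, ascorbic acid, medium, time and sorting therefore all differ between the groups and cannot be told apart. The other 3 groups, used here only to place levels, were unsorted cells at day 3, SSEA1-sorted cells at day 6 and the embryonic stem cell (ESC) line V6.5, which was grown on irradiated feeder cells. All libraries carry the same batch label.

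Fibroblasts are mesenchymal cells held in place by secreted collagen and contractile actin bundles. When Oct4, Sox2, Klf4 and Myc are expressed together, fibroblasts that reprogram are known to lose mesenchymal genes and gain epithelial junction genes first, and to switch on the endogenous pluripotency network later. SSEA1 is a carbohydrate, the Lewis X epitope, which fucosyltransferases build on cell-surface glycans; it appears on intermediates that have left the fibroblast state and is also carried by mouse embryonic stem cells.

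Libraries held between 29585876 and 38275024 estimated reads, and 16137 to 17809 genes had at least 10 reads in the MEF and day 9 libraries. Levels are given as CPM, TMM-scaled reads relative to library size, for replicate 1 and then replicate 2. The root mean square log2 difference over all tested genes was 2.1 between the group means, and 0.518 and 0.495 between the replicates of MEF and of day 9. The common coefficient of variation between replicates in the fitted model was smaller, at 3.75%. A sex-linked difference also ran between the groups. Xist, the RNA that coats the inactive X chromosome, was at 0.739 and 0.793 CPM in MEFs and at 1100 and 1050 CPM at day 9, and the Y-linked Ddx3y was at 90.6 and 86.4 against 0.0964 and 0.101 CPM. Day 3 cells had Xist at 1010 CPM and Ddx3y at 0.0713 CPM. The cultures thus differed in sex-linked transcripts as well as in stage, and these cannot be told apart. Nothing in the labels says that the replicates of a group came from separate cultures or animals, although the series describes them as biological, so p-values measure the spread between these libraries. With 2 libraries against 2, an exact permutation test cannot reach a p of 0.05, so the tests below come from a model fitted across all genes.

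Many genes differed between fibroblasts and day 9 cells in each direction, and the changes were large. Of 20165 genes tested with edgeR's quasi-likelihood test, 4857 (24.1%) were higher and 3994 (19.8%) lower at day 9, 43.9% in all, at a Benjamini-Hochberg adjusted p under 0.05 and a log2 fold change of at least 1 in size. The 2 day 9 libraries lay wholly above or wholly below the 2 MEF libraries for 86.1% of all genes tested, so this alone was common. Of the called genes, 735 rose and 711 fell by at least 5 log2 units. Library-size scaling without TMM moved the all-gene median log2 fold change from 0.193 to 0.482 and the calls to 6241 higher and 3284 lower, so 65.5% of calls were higher in place of 54.9%. Fold changes below use TMM scaling, and lists are set beside its all-gene median of 0.193. Counts of called list members are to be read beside the 24.1% higher and 19.8% lower of all genes. In bulk RNA, fewer cells of a type and less RNA per cell cannot be told apart.

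Many of the genes that MEFs transcribed most were lower at day 9. Of 130 genes above 1000 CPM in both MEF libraries, 76 were called lower at day 9, against 19.8% of all genes. These genes were picked for a high MEF level, which favours falls, and genes high at day 9 were not counted in this way. Genes called lower accounted for 42.7% and 42.4% of all CPM in MEFs but for 9.5% and 9.6% at day 9. Genes called higher went from 6.8% and 6.9% to 26.9% and 26.6%. The calls themselves set the direction of these shares, so only their size is read. Among the genes called higher, 275 lay under 1 CPM in MEFs and at 10 CPM or more at day 9, and 279 of those called lower did the reverse. Among 4277 genes with no protein-coding transcript, 1189 were higher and 431 lower, against 3668 and 3563 of 15888 protein-coding genes.

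**Figure D1:**
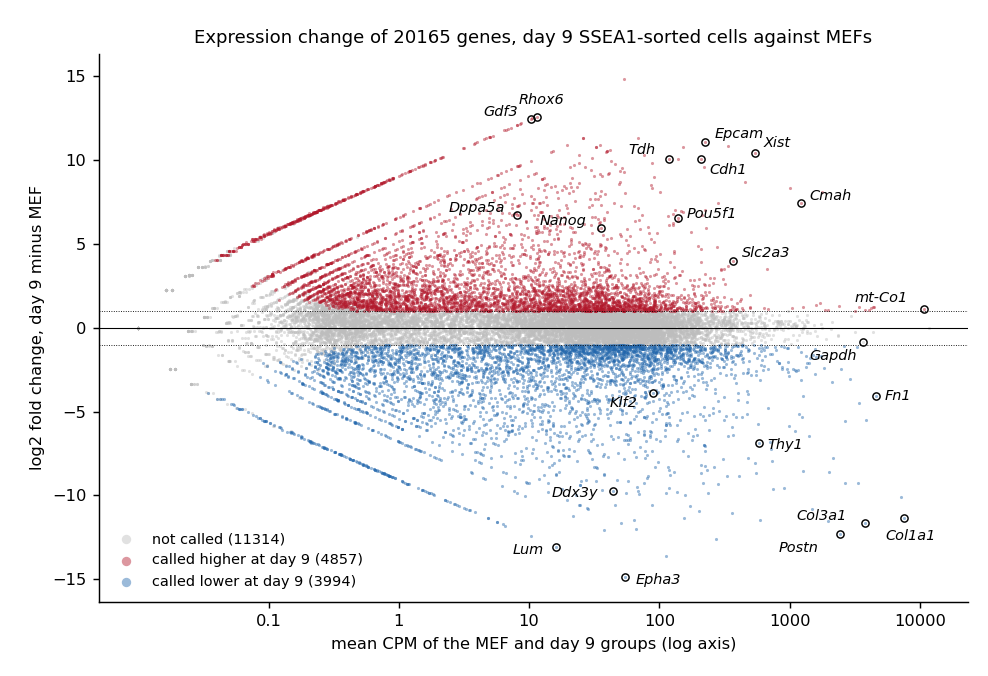
Each point is 1 of the 20165 genes tested, placed by the mean CPM of the MEF and day 9 groups (log axis) and by its log2 fold change, day 9 minus MEF. Red points (4857) were called higher and blue points (3994) lower, dotted lines mark a log2 fold change of 1 in either direction, and the straight diagonal rows of points at the left are genes with 0 or very few reads in 1 group.

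The labels were first set against marker genes. All 10 fibroblast markers (Thy1, Pdgfra, Pdgfrb, Col1a1, Col1a2, Col3a1, Dcn, Twist1, Prrx1 and Vim) were called lower at day 9. Their summed level was 45800 and 44400 CPM in MEFs and 676 and 691 CPM at day 9. Nearly all of the remainder was Vim, the intermediate filament vimentin, at 620 and 628 CPM. Without Vim, the 9 other markers went from 40600 and 39200 CPM to 56.3 and 62.9 CPM. All 5 markers of SSEA1-positive intermediates (Epcam, Cdh1, Fut9, Sall4 and Tdgf1) were called higher, at 47.8 to 457 CPM in the day 9 libraries. Of 7 markers of established pluripotency, 6 were called higher (Nanog, Esrrb, Zfp42, Dppa5a, Dppa3 and Prdm14) and Tbx3 was called lower; the 7 lay between 1.29 and 71.2 CPM at day 9. The markers thus did not go against the labels of either group. The ESC libraries include feeder cells, so their levels of fibroblast genes are shown but not read.

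The 4 cassette genes showed 2 patterns. Pou5f1 and Sox2 were nearly silent in MEFs and rose steeply, whereas Klf4 and Myc were already transcribed in fibroblasts; of these Myc rose and Klf4 was not called. Pou5f1, the gene of Oct4, stood at 3.36 and 2.59 CPM in MEFs and at 271 and 278 CPM at day 9 (log2 fold change 6.54, SE 0.089, adjusted p = 8.5e-17). Sox2, its usual partner on DNA, stood at 3.25 and 3.48 CPM and at 271 and 280 CPM (log2 fold change 6.35, SE 0.055, adjusted p = 1.1e-18). Both day 9 libraries lay above both MEF libraries for each gene, and day 3 cells were already at 233 CPM for Pou5f1 and 258 CPM for Sox2. Myc rose from 118 and 117 to 278 and 294 CPM (log2 fold change 1.28, SE 0.036). Klf4 was at 330 and 320 CPM in MEFs and at 402 and 419 CPM at day 9, which gave a log2 fold change of 0.34 (SE 0.034) below the threshold. The groups did not overlap for Klf4, and on the log2(TPM + 1) scale, where limma was fitted to transcript-length-corrected values, its difference was 1.03 and was called.

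These gene-level values add the cassette and the endogenous gene, and the transcript models show where the reads went. For Myc, the 1362-nt model Myc-202 held 5.0 and 4.86 CPM in MEFs, 4.23% and 4.16% of the gene. At day 9 it held 250 and 267 CPM, 89.9% and 90.7% of the gene. All other Myc models together went from 113 and 112 CPM to 28.0 and 27.3 CPM. For Klf4, the 522-nt model Klf4-003 went from 18.6 and 16.8 CPM to 66.8 and 74.9 CPM, while Klf4-001 was at 310 and 302 CPM and then at 335 and 344 CPM. The model shares were not tested, and whether Myc-202 and Klf4-003 collect cassette reads was not tested.

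Most pluripotency factors outside the cassette were higher at day 9 than in MEFs, and their day 9 levels stood at different distances from the ESC levels. Of 27 transcription factors of pluripotent cells, 21 were higher, 2 lower and 4 uncalled, against 24.1% of all genes higher. Their median log2 fold change was 5.95, or 4.86 with genes at 0 reads in a group set to their lower bound, against 0.193 over all genes. Of 27 tested members, 16 were under 1 CPM in both MEF libraries and 3 were still so at day 9. Sall4, a zinc-finger partner of Oct4, was at 0 and 0.061 CPM in MEFs, 2 reads over the group, and at 48.0 and 47.8 CPM at day 9. The read ratio was 1430, with an exact 95% interval of 396 to 11800 for counting error only. Nr5a2, a nuclear receptor that can drive Pou5f1, rose from 0.0739 and 0.0915 CPM to 86.3 and 83.9 CPM, with ESCs at 35.7 CPM. Utf1, a chromatin factor of undifferentiated cells, rose from 0.0369 and 0.061 to 42.5 and 46.3 CPM, with ESCs at 257 CPM.

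Nanog, the homeobox factor of the core network, stood at 0.85 and 1.37 CPM in MEFs and at 69.2 and 71.2 CPM at day 9 (log2 fold change 5.95, SE 0.139, adjusted p = 2.7e-14 by edgeR). Esrrb, an orphan nuclear receptor of the naive network, rose from 0.148 and 0.305 to 37.5 and 39.5 CPM (log2 fold change 7.35, SE 0.122). For both genes the day 9 libraries lay well above the MEF libraries, and the ESC means were 525 and 420 CPM. Zfp42 (Rex1), a late marker, was at 0.222 and 0.152 CPM and then at 2.7 and 2.53 CPM, with ESCs at 290 CPM. Its log2 fold change of 3.80 (SE 0.225) was called, but limma on log2(TPM + 1) gave 0.72 and no call. Prdm14, a repressor of differentiation, had no reads in MEFs and lay at 1.35 and 1.54 CPM at day 9; limma gave 0.35 and no call for it. The day 9 and ESC levels are set side by side as context. Their contrast was fitted but is not reported here.

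The 2 factors that fell were both naive-state genes that fibroblasts also transcribe. Klf2, a Klf4 relative, dropped from 170 and 166 CPM to 11.8 and 11 CPM (log2 fold change -3.89, SE 0.06), and ESCs had 122 CPM. Tbx3, a T-box factor, dropped from 16.5 and 16 to 1.29 and 2.0 CPM (log2 fold change -3.27, SE 0.142), and ESCs had 88.1 CPM. Both day 9 libraries lay below both MEF libraries for each gene. Since fibroblasts transcribe both genes, their ESC levels may include feeder RNA, which was not tested. The uncalled factors included Klf5, at 6.28 and 6.22 CPM in MEFs and 6.72 and 6.62 CPM at day 9, and Foxd3, at 0.554 and 0.335 and then 0.546 and 0.556 CPM. The MEF and day 9 ranges of Foxd3 overlapped. Zfp281 was at 40.4 and 40.7 CPM and then at 52.7 and 49.7 CPM.

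Among 26 genes that mark pluripotent cells but are not transcription factors, 20 were higher and 1 was lower (median log2 fold change 5.36). Gdf3, a ligand of the transforming growth factor family, lay at 19.4 and 21.6 CPM at day 9, at least 412-fold higher than a floor of 3 reads over the MEF group. Nodal, a ligand of the same family, lay at 15.9 and 16.4 CPM, at least 323-fold higher. Eras, a Ras-like GTPase of embryonic stem cells, lay at 14.2 and 13.3 CPM, at least 274-fold higher. All 3 were at 0 reads in both MEF libraries, and ESC means were 95.7, 52.6 and 26.5 CPM. Dppa5a rose from 0.332 and 0 CPM to 16.2 and 15.9 CPM (log2 fold change 6.70, SE 0.277) against 1420 CPM in ESCs. Spp1, the secreted phosphoprotein osteopontin, was the 1 member that fell, from 260 and 270 CPM to 13.7 in both day 9 libraries. Trim28, the co-repressor of retroelements, was uncalled at 348 and 345 CPM and then 586 and 595 CPM.

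**Figure D2:**
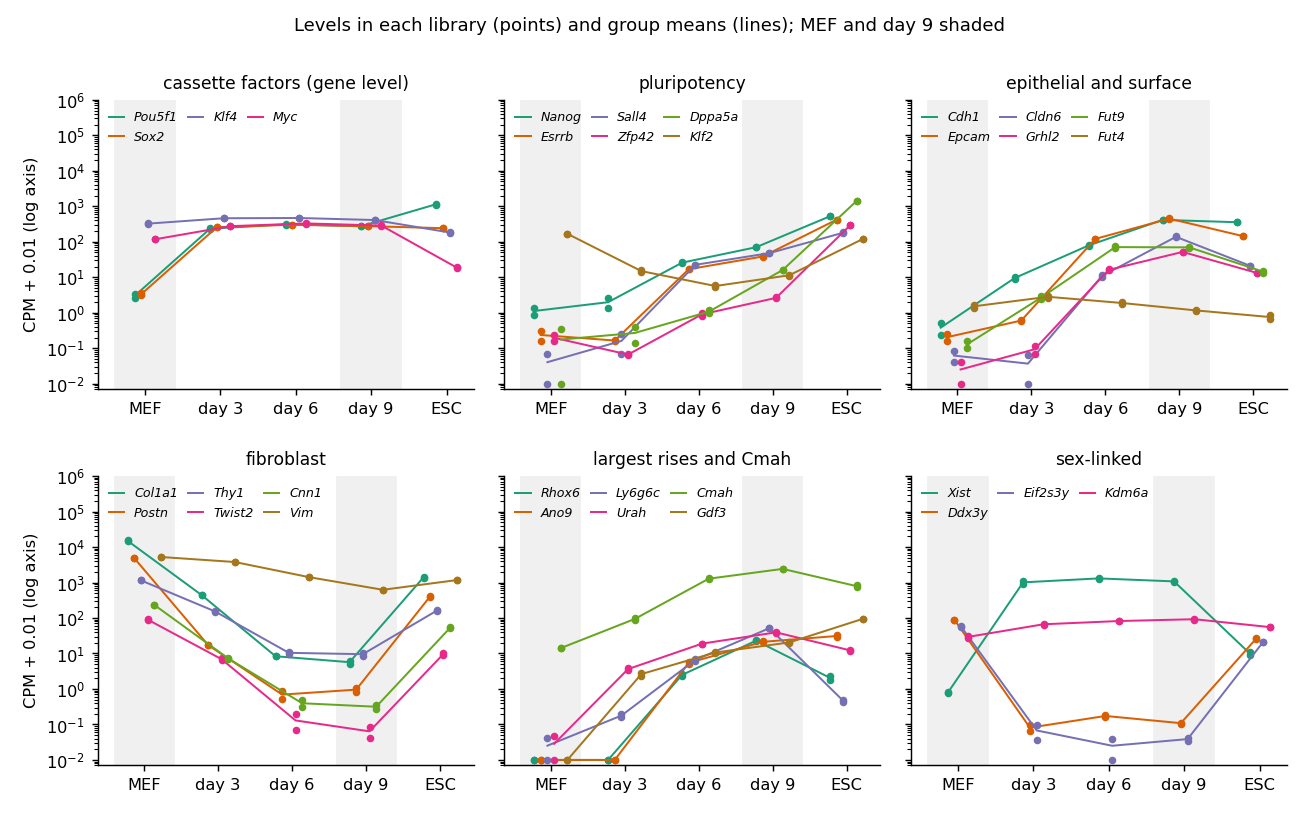
CPM + 0.01 (log axis) of named genes in every library of the 5 groups; points are libraries, lines join group means, and the MEF and day 9 groups are shaded. Pou5f1 and Sox2 reach 233 to 258 CPM by day 3, Nanog and Esrrb rise from day 6, Zfp42 stays under 3 CPM at day 9, and Col1a1, Postn and Twist2 lie lowest at day 6 and day 9.

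Promoter sequences are shown for 2 genes that rose and 2 that fell, so that the DNA just upstream of genes that moved in opposite directions can be compared; Zfp42 is shown as a late marker with a modest rise. Each is the 250 bases before the RefSeq start on GRCm38.p6, 5′ to 3′ on the gene's strand, and capitals mark matches to the motifs searched on both strands. Zfp42 lies at chr8:43307010-43307259 (minus strand), Ly6g6c at chr17:35067075-35067324 (plus), Col3a1 at chr1:45311288-45311537 (plus) and Srpx2 at chrX:133908175-133908424 (plus).
Zfp42: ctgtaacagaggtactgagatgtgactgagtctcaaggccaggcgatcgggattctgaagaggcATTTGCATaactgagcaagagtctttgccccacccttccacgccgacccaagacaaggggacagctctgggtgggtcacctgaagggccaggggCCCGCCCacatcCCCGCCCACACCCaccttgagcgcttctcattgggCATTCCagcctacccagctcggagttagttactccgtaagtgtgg
Ly6g6c: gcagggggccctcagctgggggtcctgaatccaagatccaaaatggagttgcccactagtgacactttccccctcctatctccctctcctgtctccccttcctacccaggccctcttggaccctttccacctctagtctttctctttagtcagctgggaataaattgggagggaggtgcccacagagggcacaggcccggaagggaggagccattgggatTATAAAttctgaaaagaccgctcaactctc
Col3a1: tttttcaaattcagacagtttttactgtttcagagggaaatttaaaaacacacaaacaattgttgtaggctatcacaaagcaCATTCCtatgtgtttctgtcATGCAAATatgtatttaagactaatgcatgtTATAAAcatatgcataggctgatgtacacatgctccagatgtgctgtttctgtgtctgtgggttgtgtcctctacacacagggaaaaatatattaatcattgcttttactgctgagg
Srpx2: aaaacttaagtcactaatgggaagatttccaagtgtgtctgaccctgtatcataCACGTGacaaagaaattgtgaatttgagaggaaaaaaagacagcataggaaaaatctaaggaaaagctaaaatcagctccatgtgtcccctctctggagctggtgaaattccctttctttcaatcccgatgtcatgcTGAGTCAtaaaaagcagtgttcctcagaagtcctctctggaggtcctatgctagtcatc
The octamer ATGCAAAT, the sequence that POU factors such as Oct4 bind, was in the promoter of Zfp42 (186 bases upstream) and also in that of Col3a1 (148 bases upstream), a gene that fell. It was in 1.49% of the 12276 promoters of 300 bases that could be matched. Zfp42 also held a KLF box CCACACCC at 75 bases, which overlaps the SP box GGGCGGG at 80 bases, a further SP box at 92 bases, and the TEAD motif CATTCC at 45 bases; these were in 3.89%, 45.4% and 12.4% of promoters. Ly6g6c held a TATA box TATAAA 30 bases upstream, and Col3a1 held that motif at 117 bases and a TEAD motif at 168 bases (TATA box in 7.97% of promoters). Srpx2 held the AP-1 motif TGANTCA at 59 bases (5.28%) and the E-box CACGTG at 196 bases (9.69%). A match describes the letters only. Promoters were found for 77.5% of the protein-coding genes, below the 80% set for such a check. Motif shares of higher and lower genes were therefore counted but are not compared here.

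The protein-coding genes with the largest fitted rises at 20 CPM or more included several with no reads or 1 read in MEFs, so their order is not measured. Rhox6, an X-linked homeobox gene of the reproductive cluster, and Ano9, a membrane protein of the anoctamin family, had no reads in MEFs and lay at 23.4 and 22.4 CPM and at 20.6 and 21.9 CPM at day 9. These were at least 456-fold and 426-fold above the floor of 3 reads over the group. Ly6g6c, a small glycolipid-anchored surface protein gene, had 1 read over the MEF group and lay at 51.1 and 52.2 CPM at day 9, a ratio of 3100 (exact 95% interval 555 to 122000). Its ESC level was 0.449 CPM. Urah, an enzyme of urate breakdown, likewise had 1 MEF read and lay at 39.0 and 39.8 CPM. Gdf3, Cldn6, Grhl2 and Epcam completed the 8 genes chosen by this rule. By the rise in CPM, 5 of the leading 6 protein-coding genes were mitochondrially encoded. The other was Cmah (chr13:24327404-24477377), the enzyme that makes the sialic acid Neu5Gc, which rose from 14.3 and 14 CPM to 2460 and 2380 CPM (log2 fold change 7.42, SE 0.07, adjusted p = 2.3e-18 by edgeR). Cmah was at 93.8 CPM at day 3, 1280 CPM at day 6 and 789 CPM in ESCs. Among genes with no protein-coding transcript, Gm38312 rose by more in CPM, from 13.1 and 12.6 to 3530 and 3590 CPM, and was named after its values were seen.

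Of the enzymes that could build the epitope used for sorting, Fut9 rose and Fut4 did not. Fut9, a fucosyltransferase that makes Lewis X, stood at 0.148 and 0.0915 CPM in MEFs and at 72.1 and 67.2 CPM at day 9 (log2 fold change 9.17, SE 0.167, adjusted p = 1.7e-15 by edgeR). Fut4, another Lewis X fucosyltransferase, was at 1.37 and 1.65 CPM and at 1.22 and 1.09 CPM (log2 fold change -0.39, SE 0.264, adjusted p = 0.19). The cells were sorted on the product of this step, so the Fut9 level and the gate cannot be told apart. B4galt1, which makes the galactose acceptor, fell from 189 and 190 to 34.2 and 34.0 CPM.

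Genes of surface antigens that stage reprogramming, with the enzymes above, moved both ways (median log2 fold change -0.39). Of 25 tested, 8 (32.0%) were higher and 7 (28.0%) lower, not far from the 24.1% and 19.8% of all genes. Itgb4, the beta subunit of the hemidesmosome integrin, rose from 3.51 and 3.23 to 431 and 457 CPM (log2 fold change 7.05, SE 0.06), with ESCs at 16.2 CPM. Kit, Prom1, Cd24a, Bst2 and Pecam1 also rose. Cd44, the hyaluronan receptor that marks early intermediates, fell from 264 and 271 to 23.1 and 24.1 CPM (log2 fold change -3.50, SE 0.039). Itgb3 fell from 81.4 and 82.2 to 4.66 and 3.86 CPM, and Thy1, the classic fibroblast surface antigen, from 1140 and 1160 to 8.68 and 10.4 CPM (log2 fold change -6.90, SE 0.083). None of these genes had overlapping groups. Cd81 stayed uncalled at 444 and 446 CPM and then 299 and 304 CPM.

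Most epithelial adhesion and junction genes rose. Of 41 tested adhesion and junction genes, 35 (85.4%) were higher and 3 lower, with a median log2 fold change of 5.14. Epcam (chr17:87635979-87651129), a homophilic adhesion molecule of epithelia, stood at 0.148 and 0.244 CPM in MEFs and at 441 and 457 CPM at day 9 (log2 fold change 11.10, SE 0.081, adjusted p = 2.5e-19 by edgeR). Cdh1, E-cadherin of adherens junctions, stood at 0.222 and 0.518 CPM and at 405 and 423 CPM (log2 fold change 10.06, SE 0.105). Cldn6, a tight junction claudin, went from 0.0739 and 0.0305 to 134 and 142 CPM. These 3 genes had ESC means of 144, 356 and 21.2 CPM. Crb3, a polarity protein, had no reads in MEFs and lay at 15.9 and 16.4 CPM, at least 323-fold above the floor. Esrp1, the epithelial splicing regulator, rose from 0.0369 and 0.061 to 85.4 and 82.1 CPM, and Spint1, a membrane protease inhibitor, from 0.185 and 0.488 to 181 and 186 CPM. Tjp1, the scaffold ZO-1, was uncalled at 127 and 131 CPM and then 174 and 181 CPM.

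The 3 junction genes that fell were the mesenchymal cadherin Cdh2, the cadherin Cdh3 and a connexin. Cdh2, N-cadherin, fell from 137 and 136 to 4.08 and 4.77 CPM (log2 fold change -4.94, SE 0.067), and Cdh3, P-cadherin, from 221 and 217 to 3.25 and 3.26 CPM (log2 fold change -6.07, SE 0.065). Both lay far below the MEF range. The third was the connexin Gjb5, at 3.44 and 5.52 CPM and then at 0.868 and 0.455 CPM.

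Of 21 epithelial transcription factors, 12 were higher and 2 lower. Grhl2, an activator of Cdh1, had 1 read over the MEF group and lay at 52.0 and 51.7 CPM at day 9, a ratio of 3100 (exact 95% interval 557 to 123000), against 13.3 CPM in ESCs. Ehf, an ETS factor of stratified epithelia, rose from 0.111 and 0.122 to 151 and 155 CPM, and lay at 0.6 CPM in ESCs. Sox21 rose from 0.0739 and 0.183 to 103 in both day 9 libraries. Klf6 fell from 650 and 671 to 83.6 and 82.0 CPM, and Sox9 from 36.5 and 35.4 to 2.41 and 2.5 CPM. Trp63, the p63 factor of basal epidermis, was uncalled.

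Keratins followed in part: 11 of 21 tested keratin and cornified-envelope genes were higher and 1 was lower (median log2 fold change 2.06). The simple-epithelial Krt8 rose from 5.61 and 6.43 to 144 and 154 CPM. Krt6a, a keratin of stressed epidermis, rose from 0.0369 and 0.0915 to 26.9 and 25.8 CPM, with day 6 cells at 0.461 CPM and ESCs at 0.0134 CPM. Krt17 rose from 0.111 and 0.061 to 15.2 and 13.9 CPM, and Tgm1, the transglutaminase that cross-links the cornified envelope, from 0.517 and 0.366 to 71.8 and 70.7 CPM. All day 9 libraries of these genes lay above the MEF libraries. Krt19 was uncalled at 27.4 and 28.0 CPM and then 19.8 CPM in both. With genes at 10 CPM or more only, 7 keratin-list genes were higher.

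The factors that hold fibroblasts in the mesenchymal state were almost all lower. Of 32 tested mesenchymal transcription factors, 28 (87.5%) fell and 2 rose, with a median log2 fold change of -5.35 against 0.193 over all genes. Osr1, a zinc-finger factor of lateral mesoderm, went from 44.4 and 42.5 CPM to 0 and 0.0253 CPM, 1 read over the group, a ratio of 3070 (exact 95% interval 550 to 121000). Twist2 fell from 90.3 and 90.7 to 0.0321 and 0.0758 CPM (log2 fold change -10.55, SE 0.183). Ebf2 fell from 13.1 and 13.3 to 0.0321 and 0.0253 CPM. Day 9 reads of these 3 genes were close to none. Among the repressors of Cdh1, Snai1 fell from 45.5 and 44.8 to 0.739 and 0.783 CPM, Snai2 from 59.1 and 62.7 to 0.289 and 0.253 CPM, and Zeb2 from 154 and 148 to 2.09 and 1.72 CPM. Zeb1 fell less, from 60.5 and 64.3 to 12.1 and 13.3 CPM. Foxd1 rose from 5.76 and 5.49 to 21.7 and 22.9 CPM, and Nkx2-3 rose at levels under 1 CPM. Foxc1 was uncalled at 16.3 and 13.7 CPM and then 23.5 and 26.7 CPM.

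The 6 protein-coding genes with the largest falls in CPM all encode secreted matrix proteins. Of 26 collagen genes, 23 (88.5%) fell and 1 rose, and 11 of them had been above 1000 CPM in both MEF libraries. Col1a1 (chr11:94936224-94953042), the chain of type I collagen whose locus carries the cassette, fell from 15600 and 14400 CPM to 5.14 and 6.21 CPM (log2 fold change -11.35, SE 0.067, adjusted p = 3.8e-20 by edgeR). Col1a2 fell from 14500 and 14100 to 12.3 and 14.2 CPM. Col3a1 fell from 7590 and 7660 to 2.25 and 2.4 CPM (log2 fold change -11.67, SE 0.067), and Col12a1 from 4040 and 3790 to 1.06 and 1.54 CPM. Both day 9 libraries lay far below both MEF libraries for each chain. In TPM, which corrects for transcript length, the collagens took 0.993% ± 0.0397 (SD, n = 2) of the MEF transcripts and 0.0128% ± 0.000312 (SD, n = 2) at day 9. The exception was Col17a1, the transmembrane collagen of hemidesmosomes, which rose from 0.591 and 1.07 to 58.8 and 59.7 CPM (log2 fold change 6.12, SE 0.136), next to its partner Itgb4 above. Col18a1, the source of endostatin, was uncalled at 188 and 185 CPM and then 132 and 138 CPM.

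The machinery that folds and cross-links collagen fell with it: 23 of 25 genes were lower and none was higher (median log2 fold change -3.09). Lox, lysyl oxidase, fell from 3000 and 2900 to 1.03 and 2.07 CPM (log2 fold change -10.84, SE 0.094). Its relative Loxl1 fell from 536 and 513 to 1.09 and 2.12 CPM, and Adamts2, the procollagen protease, from 178 and 173 to 1.09 and 1.06 CPM. Of the uncalled pair, Pcolce2 was at 19.8 and 20.2 CPM and then 22.6 and 22.2 CPM.

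Of 25 tested surface and secreted fibroblast markers, 21 fell and 1 rose. Postn, the matricellular protein periostin, fell from 4870 and 4880 to 0.836 and 1.06 CPM (log2 fold change -12.30, SE 0.076, adjusted p = 6.3e-20 by edgeR). Lum, the proteoglycan lumican, was at 30.4 and 33.5 CPM and then had no reads, at least 757-fold lower. Among the 8 protein-coding genes with the largest fitted falls was Epha3 (chr16:63543534-63864175), an ephrin receptor, which went from 110 and 108 CPM to no reads, at least 2560-fold lower than MEFs. Mfap4, a microfibril protein, kept 1 read of 13444, and Srpx2 1 read of 4500. Rspo2, a Wnt enhancer, had no day 9 reads and was at least 481-fold lower. Lrrc15 fell from 554 and 540 to 0.0964 and 0.0758 CPM. By CPM, Fn1 (9120 and 8200 to 534 and 497), Thbs1 (7600 and 7610 to 173 and 169) and Bgn (6700 in both to 10.5 and 11.2) were among the 6 largest falls. Not every marker went the same way. Nt5e (CD73) rose from 12.6 and 12.3 to 75.2 and 73.8 CPM, and Ly6a (Sca-1) was uncalled at 178 and 180 CPM and then 298 and 323 CPM, with ESCs at 8.57 CPM.

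Contractile genes were lower as well, and 18 of 26 still lay at 10 CPM or more in both day 9 libraries. Of 26 stress fiber genes, 25 fell and none rose (median log2 fold change -3.11). All 26 were lower in both day 9 libraries than in both MEF libraries, while groups lay apart for 86.1% of all genes. Cnn1, the smooth-muscle calponin, fell from 232 and 238 to 0.257 and 0.354 CPM (log2 fold change -9.54, SE 0.106). Myh11 fell from 93.3 and 96.4 to 0.0643 and 0.253 CPM, and Flnc from 426 and 410 to 1.16 and 0.934 CPM. The abundant smooth-muscle actin Acta2 fell from 5140 and 5250 to 107 and 115 CPM. The list took 1.02% ± 0.0133 (SD, n = 2) of TPM in MEFs and 0.171% ± 0.00167 (SD, n = 2) at day 9. Cnn3 was the uncalled member, at 668 and 682 CPM and then 467 and 472 CPM.

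Genes of the mechanosensitive Yap and Tead pathway and of the serum response were mostly lower. Of 28 genes, 18 (64.3%) were lower, 2 (7.14%) higher and 8 uncalled (median log2 fold change -1.86). Over all genes, 19.8% were lower and 24.1% higher. Ankrd1 fell from 65.5 and 66.4 to 0.482 and 0.53 CPM (log2 fold change -7.01, SE 0.092), Fosl1 from 16.2 and 17.9 to 0.675 and 0.732 CPM, and Egr2 from 84.5 and 86.3 to 4.53 and 4.62 CPM. The AP-1 genes Fos (2210 and 2200 to 442 and 443 CPM) and Jun (1060 and 1040 to 360 and 362 CPM) fell too. Ctgf, a standard Yap target, was uncalled at 429 and 449 CPM and then 383 and 388 CPM. Tead4 rose from 5.5 and 5.21 to 21.9 and 22 CPM and Nuak2 from 7.28 and 7.04 to 31.7 and 32.2 CPM.

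In the transforming growth factor beta and activin pathway, 25 of 37 genes (67.6%) fell and 4 (10.8%) rose (median log2 fold change -2.01). The shares over all genes were 19.8% and 24.1%. Of the ligands, Tgfb1 fell from 68.9 and 66.1 to 2.03 and 2.0 CPM and Tgfb3 from 359 in both to 3.7 and 4.27 CPM. Ltbp2, a secreted matrix protein, fell from 337 and 325 to 1.99 and 1.36 CPM. The 4 genes that rose were the ligand Bmp7, Id2 and the activin and Nodal receptors Acvr1b, from 18.7 and 17.3 to 49.1 and 49.7 CPM, and Acvr2b, from 1.4 and 1.04 to 8.16 and 7.3 CPM. Id2, at 104 and 103 CPM and then 207 and 218 CPM, lost its call under DESeq2, at a log2 fold change of 0.90. The BMP receptor Bmpr1a was at 141 and 146 CPM and then 144 and 137 CPM, and its groups overlapped.

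Hox genes, which record body position in fibroblasts, fell or stayed uncalled: 25 of 37 tested (67.6%) were lower and none was higher (median log2 fold change -1.90). Over all genes, 19.8% were lower and 24.1% higher. Hoxb9 fell from 63.6 and 61.2 to 1.13 and 1.21 CPM (log2 fold change -5.73, SE 0.095), Hoxc5 from 12.4 and 15.2 to 0.643 and 0.455 CPM, and Hoxc8 from 44.5 and 41.3 to 2.83 and 3.64 CPM. These lay far below the MEF range. Hoxb3 was uncalled at 17.8 and 15.6 CPM and then 12.9 and 13.8 CPM. Many Hox genes are weakly expressed. With a filter of 10 CPM in at least 2 libraries, 12 were called lower.

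**Figure D3:**
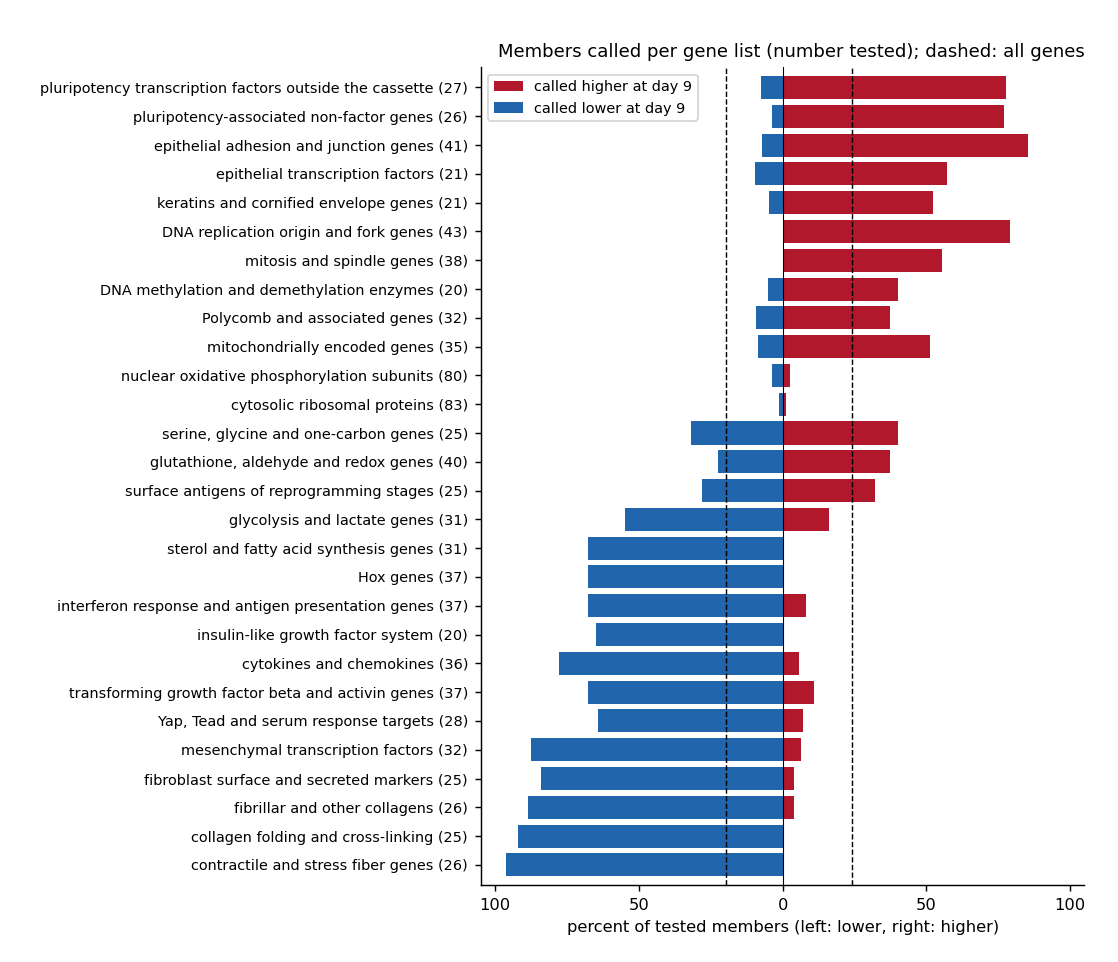
Percent of tested members of each gene list called higher (red, right) or lower (blue, left) at day 9, with the number tested in parentheses; dashed lines mark the shares over all 20165 genes, 24.1% higher and 19.8% lower. Junction, replication and pluripotency lists lie far to the right, contractile and collagen lists far to the left, and the ribosomal and nuclear oxidative phosphorylation lists near 0 on both sides.

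Chromatin regulators changed by smaller amounts. Of 20 DNA methylation and demethylation genes, 8 (40.0%) were higher and 1 (5.0%) lower, against 24.1% and 19.8% of all genes (median log2 fold change 0.77). Dnmt3b, a de novo methyltransferase, rose from 2.59 and 3.87 to 46.8 and 47.3 CPM (log2 fold change 3.84, SE 0.099), Uhrf1, which guides maintenance methylation, from 67.1 and 72.6 to 411 and 415 CPM, and the demethylation enzyme Tet1 from 13.4 and 14 to 81.6 and 78.4 CPM. Apobec1, a cytidine deaminase, rose from 4.36 and 3.93 to 64.1 and 62.6 CPM, and the glycosylase Mbd4 from 4.51 and 4.63 to 29.6 and 29.0 CPM. The groups did not overlap in any of these. Gadd45a fell from 46.1 and 47.9 to 21.9 and 21.6 CPM, and its call was lost under library-size scaling. Mbd3 stayed at 119 and 118 CPM and 119 and 117 CPM with overlapping groups (log2 fold change -0.00, SE 0.044, adjusted p = 0.94).

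Of 32 Polycomb genes, 12 (37.5%) rose and 3 (9.38%) fell, against 24.1% and 19.8% of all genes (median log2 fold change 0.53). The risers included alternative subunits. Cbx7, the chromodomain subunit prominent in embryonic stem cells, rose from 1.96 and 2.01 to 98.6 and 97.7 CPM (log2 fold change 5.62, SE 0.076). Jarid2, which recruits the second Polycomb complex, rose from 23.2 and 24.5 to 133 and 128 CPM, and E130012A19Rik (Epop), another accessory subunit, from 4.88 and 4.36 to 123 and 126 CPM. Among those that fell, Phf1 went from 25.3 and 26.8 to 8.81 and 9.75 CPM and Yaf2 from 29.1 and 31.5 to 12.5 and 12.1 CPM. The methyltransferase Ezh2 rose from 39.0 and 37.9 to 147 and 146 CPM.

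Germline genes that are held silent by promoter methylation gave a mixed picture, with 11 of 32 higher and 5 lower (median log2 fold change 0.13), near the 24.1% and 19.8% of all genes. DESeq2 called 9 higher and 3 lower, and the fit of the 4 libraries 8 and 3. Without MEF replicate 2 the counts were also 8 and 3. Most were hardly transcribed: 27 of the 32 were under 1 CPM in both MEF libraries and 25 in both day 9 libraries. Rec8, the meiotic cohesin, rose from 0.111 and 0.152 to 15.2 and 16.4 CPM, and Piwil2, a piRNA-binding protein, from 0.222 and 0.335 to 25.9 CPM in both. Piwil4 rose from 0.185 and 0.305 to 5.27 and 5.13 CPM. ESC means were 11.5, 34.1 and 6.26 CPM. The meiotic gene Sycp1 was at 2.36 and 2.65 CPM and then 2.73 and 2.7 CPM. With limma on log2(TPM + 1), 4 members were called higher and 0 lower.

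Cell cycle genes were higher at day 9. Of 43 genes of replication origins and forks, 34 were called higher (median log2 fold change 1.58). All 43 were higher in both day 9 libraries than in both MEF libraries. The groups lay apart, in either direction, for 86.1% of all genes. Mcm10 rose from 12.2 and 11.7 to 106 and 109 CPM (log2 fold change 3.17, SE 0.047, adjusted p = 1.9e-16 by edgeR). The licensing factor Cdt1 rose from 16.5 and 17.0 to 97.3 and 94.4 CPM, and its inhibitor geminin (Gmnn) from 15.1 and 14.1 to 73.9 and 75.5 CPM. The abundant Rrm1, a subunit of ribonucleotide reductase, was uncalled at 214 and 212 CPM and then 388 and 394 CPM. Of 38 mitosis and spindle genes, 21 rose and none fell (median log2 fold change 1.06), so many sat near the threshold: 15 were called by DESeq2, 16 in a fit of only the 4 libraries and 29 with library-size scaling. Spc24 of the kinetochore rose from 13.5 and 13.8 to 78.9 and 79.6 CPM, separase (Espl1) from 28.3 in both to 111 and 114 CPM, and Aurkb from 31.5 and 30.4 to 101 and 103 CPM. Tpx2 was uncalled at 147 and 144 CPM and then 217 and 226 CPM.

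The list of Cdk inhibitors, p53 targets and senescence genes, which also holds cyclins, did not move together. Of its 31 genes, 7 rose and 6 fell, close to the shares of all genes. The median log2 fold change of 0.04 became -0.11 with DESeq2. Cdkn1c (p57) fell from 128 and 126 to 5.01 and 5.99 CPM (log2 fold change -4.51, SE 0.07) and Cdkn2b (p15) from 104 and 103 to 6.78 and 6.97 CPM. Cdkn2a, which encodes p16 and p19Arf, was uncalled at 42.4 and 47.5 CPM and then 68.0 and 72.2 CPM, as was Cdkn1a (p21) at 324 and 332 CPM and then 221 and 230 CPM. Rb1 rose from 19.5 and 15.9 to 107 and 108 CPM, cyclin E1 (Ccne1) from 26.2 and 28.5 to 88.1 and 89.0 CPM, and the p53 target Bbc3 (Puma) from 22.8 and 22.3 to 66.2 and 64.8 CPM. Plk2 fell from 313 and 307 to 85.6 and 85.7 CPM. Cyclin D2 (Ccnd2) was at 659 and 651 CPM and then 630 and 636 CPM.

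Metabolic genes divided by pathway. Glycolysis and lactate genes were mostly lower: 17 of 31 fell and 5 rose (median log2 fold change -1.06). Slc16a3 (MCT4), the lactate exporter, fell from 496 and 502 to 14.5 and 14.8 CPM (log2 fold change -5.09, SE 0.055). The phosphofructokinases Pfkl and Pfkp fell from 517 and 514 to 99.8 and 102 CPM and from 129 and 127 to 29.3 and 28.1 CPM, and Ldha fell from 2250 and 2300 to 520 and 531 CPM. Other transport and lactate genes rose. Slc2a3 (GLUT3) rose from 43.4 and 43.9 to 697 and 681 CPM (log2 fold change 3.98, SE 0.034), Slc16a1 (MCT1) from 39.5 and 40.2 to 97.1 and 96.2 CPM and Ldhb from 23.9 and 26.5 to 57.5 and 58.5 CPM. Fbp1 and Fbp2 also rose but stayed under 2 CPM, and limma on log2(TPM + 1) did not call them, which left 3 glycolysis genes higher. Gapdh was lower in both day 9 libraries but below the threshold, at 4700 and 4760 CPM and then 2630 and 2640 CPM (log2 fold change -0.85, SE 0.036).

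Serine, glycine and one-carbon genes moved in both directions (median log2 fold change 0.55). Of 25, 10 (40.0%) were higher and 8 (32.0%) lower, against 24.1% and 19.8% of all genes. Tdh, threonine dehydrogenase, rose from 0.185 and 0.244 to 234 and 236 CPM (log2 fold change 10.06, SE 0.08, adjusted p = 5.8e-19 by edgeR), Gldc of the glycine cleavage system from 0.517 and 0.732 to 78.1 and 78.2 CPM, and Cbs of transsulfuration from 0.591 and 0.427 to 13.3 and 14 CPM. Aldh1l1 fell from 18.3 and 16.5 to 0.9 and 1.14 CPM, and the mitochondrial folate enzymes Aldh1l2 from 278 and 281 to 31.4 and 31.0 CPM and Mthfd2 from 159 and 163 to 29.9 and 29.1 CPM. Mat2a was uncalled at 181 and 184 CPM and then 268 and 266 CPM.

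Sterol and fatty acid synthesis fell without a rise: 21 of 31 genes were lower and none higher (median log2 fold change -1.41). In both day 9 libraries 30 lay lower, while groups lay apart for 86.1% of all genes. Scd2, a fatty acid desaturase, fell from 2750 and 2730 to 411 and 416 CPM, and Cyp51 of the cholesterol pathway from 327 and 330 to 59.9 and 60.0 CPM. Acly was uncalled at 544 and 541 CPM and then 327 and 336 CPM.

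Few ribosomal protein genes and nuclear subunits of oxidative phosphorylation passed the fold threshold. Of 83 cytosolic ribosomal protein genes 1 rose and 1 fell (median log2 fold change 0.29), and of 80 nuclear oxidative phosphorylation subunits 2 rose and 3 fell (median 0.23), against 43.9% of all genes called. With library-size scaling 5 ribosomal and 8 oxidative phosphorylation genes were higher, and with no fold minimum 62 and 50 were higher and 7 and 13 lower. The exceptions included tissue-restricted copies. Rpl39l, the paralogue of Rpl39, fell from 12.7 and 13.6 to 1.96 and 2.32 CPM. Cox6b2, the testis form of a cytochrome oxidase subunit, rose from 5.1 and 4.69 to 107 and 109 CPM, and Cox4i2, the lung form, fell from 9.68 and 10.2 to 0.354 and 0.126 CPM. Ribosomal genes share sequence with processed pseudogenes, so their reads are uncertain. They took 8.81% ± 0.0371 (SD, n = 2) of TPM in MEFs and 9.6% ± 0.0887 (SD, n = 2) at day 9.

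The mitochondrial genome supplied 2.02% and 2.06% of the MEF reads, against 5.32% and 5.0% of those at day 9. Of 13 that encode proteins, 11 were called higher; mt-Nd5, at 1570 and 1650 CPM and then 1880 and 1840 CPM, and mt-Nd6 were not. The cytochrome oxidase gene mt-Co1 rose from 6680 and 6860 to 15000 and 14300 CPM (log2 fold change 1.11, SE 0.03) and mt-Cytb from 2570 and 2700 to 6260 and 6030 CPM. mt-Co2 rose from 959 and 844 to 2850 and 2250 CPM, with the 2 day 9 libraries apart from each other. With the tRNA and rRNA genes, 18 of 35 were higher and 3 lower. These changes were near the threshold, and 11 of 35 were called higher by DESeq2 and in the fit of the 4 libraries alone, where mt-Co1 gave 0.97 and 0.98. The relation of this share to RNA quality was not tested.

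**Figure D4:**
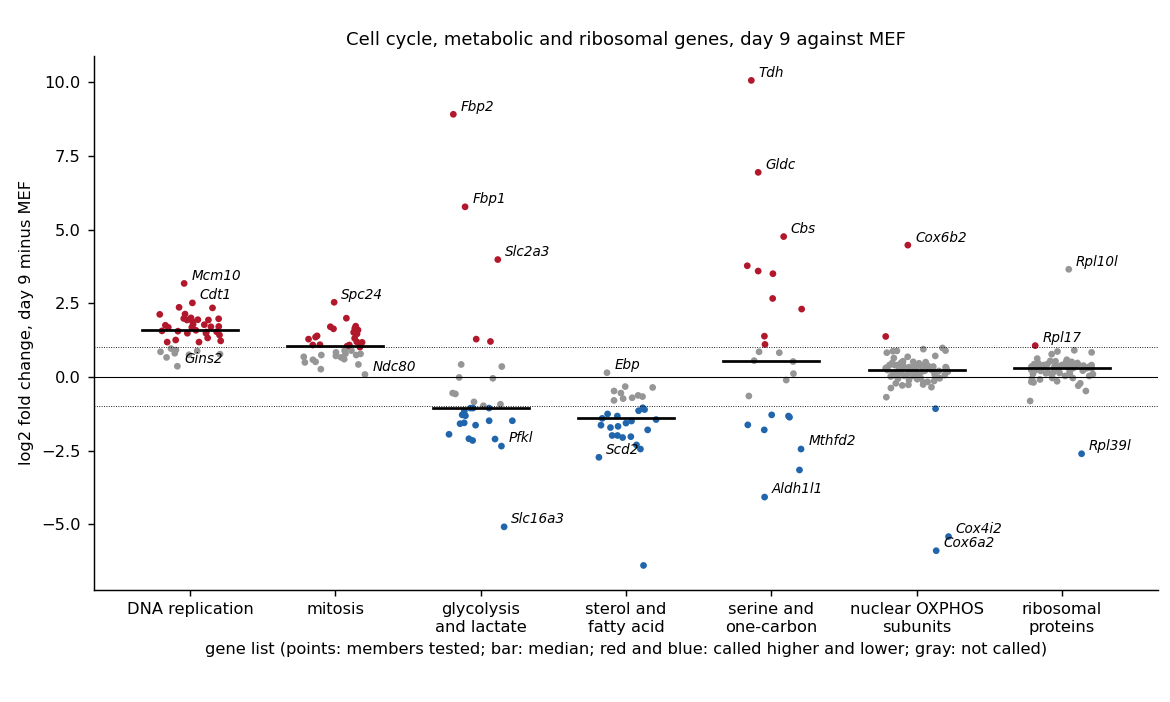
Log2 fold change, day 9 minus MEF, of each tested member of 7 gene lists; red and blue points were called higher and lower, gray points were not called, bars are medians and dotted lines mark a log2 fold change of 1 in either direction. All replication genes lie above 0 (median 1.58), glycolysis and sterol genes lie mostly below (medians -1.06 and -1.41), and ribosomal genes cluster near 0.29.

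Redox genes showed large single changes in both directions (median log2 fold change 0.56). Of 40, 15 (37.5%) were higher and 9 (22.5%) lower, against 24.1% and 19.8% of all genes. Gpx2, the glutathione peroxidase of gut epithelium, rose from 0.0739 and 0 to 64.5 and 64.9 CPM. Aldh3a1, an aldehyde dehydrogenase of cornea, rose from 0.259 and 0.244 to 272 and 285 CPM, with 711 CPM at day 3 and 1.28 CPM in ESCs. Gsta3 rose from 0.776 and 0.457 to 32.6 and 35.0 CPM. Aldh1a2, which makes retinoic acid, went from 10 and 9.27 CPM to no reads, at least 227-fold lower. Gpx8 fell from 123 and 126 to 2.73 and 2.93 CPM and the secreted Sod3 from 17.1 and 17.3 to 0.45 and 0.581 CPM. Prdx1 was uncalled at 428 and 431 CPM and then 760 and 773 CPM.

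Genes of innate defence and paracrine signalling were mostly lower. Of 37 interferon-response and antigen-presentation genes, 25 fell and 3 rose (median log2 fold change -1.72). Isg15 fell from 14.1 and 13.1 to 0.193 and 0.177 CPM, Ifit2 from 15.9 and 16.7 to 0.482 and 0.631 CPM, and Gbp2 from 16.2 and 14.5 to 0.707 and 0.96 CPM. B2m, the light chain of MHC class I, fell from 350 and 360 to 39.6 and 42.3 CPM (log2 fold change -3.11, SE 0.042), while the heavy chain gene H2-K1 was uncalled at 103 and 107 CPM and then 66.5 and 71.7 CPM. The 3 that rose were Bst2 (tetherin), from 21.2 and 20.7 to 203 and 209 CPM, Ddx58 (the RNA sensor RIG-I), from 43 and 44.2 to 92.5 and 94.5 CPM, and Oas2, under 1 CPM in every library compared. Ddx58 lost its call under DESeq2, as did Oas2, which also lost it without MEF replicate 2 or without day 9 replicate 2. Most members are weakly expressed, and 12 were called lower among genes passing 10 CPM in 2 libraries.

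Of 36 cytokine and growth factor genes, 28 fell and 2 rose (median log2 fold change -4.02). Hgf, a scatter factor of mesenchyme, kept 2 reads over the day 9 group, a ratio of 704 (exact 95% interval 194 to 5820), the interleukin-33 receptor Il1rl1 from 44.7 and 47.5 to 0.257 and 0.126 CPM, and Fgf7 from 39.2 and 35.1 to 0.257 and 0.126 CPM. Vegfa fell from 360 in both to 9.61 and 8.99 CPM. Il34, a ligand of the Csf1 receptor, rose from 1.92 and 2.8 to 47.3 and 52.8 CPM, and Ccl8 was the other to rise. Lifr, the receptor for LIF, was uncalled at 28.8 and 28.9 CPM and then 22.9 and 22.3 CPM. In the insulin-like growth factor system 13 of 20 fell and none rose. Igfbp5 fell from 1800 and 1810 to 2.44 and 2.27 CPM (log2 fold change -9.58, SE 0.082), Igfbp7 from 954 and 967 to 4.21 and 4.65 CPM, and Igf1 from 34.0 and 31.8 to 0.225 and 0.177 CPM. Grb10, an adaptor that dampens the receptor, was uncalled at 1370 and 1380 CPM and then 1140 and 1150 CPM.

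Markers of other cell types were read to see what else the cultures or the gate could hold. Of 12 endothelial markers, 8 were higher and 3 lower, and their summed level was 172.4 and 165.1 CPM in MEFs and 92.32 and 93.73 CPM at day 9. Tek (Tie2) made up most of the day 9 sum, rising from 2.25 and 2.41 to 67.7 and 68.9 CPM. Cdh5 (VE-cadherin), the defining junction gene, was also called and lay at 3.57 and 3.21 CPM at day 9. Its call was lost with limma on log2(TPM + 1). Emcn was at 0 and 0.0253 CPM at day 9. With the filter of 10 CPM in 2 libraries, 3 endothelial markers were called higher, and the cells these reads came from were not tested. Of 12 tested macrophage and blood markers, 10 were lower and 2 higher, and with limma on log2(TPM + 1) 3 were lower. The pan-leukocyte Ptprc (CD45) was at 0.129 and 0 CPM at day 9, Csf1r at 0.225 and 0 CPM and Adgre1 (F4/80) at 0 and 0.0758 CPM. The list sum was 24.79 and 26.8 CPM in MEFs and 302.2 and 316.2 CPM at day 9. Nearly all of the day 9 sum was Laptm5, a lysosomal membrane protein gene, which rose from 2.03 and 2.84 to 292 and 306 CPM (log2 fold change 6.92, SE 0.07). Of 16 muscle and neural markers, 7 (43.8%) were higher and 6 (37.5%) lower, against 24.1% and 19.8% of all genes. Their sums were 252.9 and 244.1 CPM in MEFs and 193.7 and 204.4 CPM at day 9. Pax7, the factor of muscle stem cells and neural crest, rose from 0 and 0.0915 to 77.5 and 82.3 CPM and lay at 0.257 CPM in ESCs, and Sox1, of early neural tissue, had no MEF reads and lay at 12.6 and 13.1 CPM, at least 258-fold above the floor. The neuronal tubulin Tubb3 fell from 94.9 and 96.0 to 3.95 and 4.57 CPM.

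Of 15 trophoblast and primitive endoderm markers, 3 rose and 5 fell, against 24.1% higher and 19.8% lower of all genes. Whether these small counts differ from those shares was not tested. The list sum went from 425.4 and 424.5 CPM in MEFs to 76.34 and 80.77 CPM at day 9. Most of the MEF sum was Pdgfra, which is also a fibroblast marker and fell from 275 and 274 to 0.289 and 0.328 CPM, and only 3 members reached 10 CPM in both MEF libraries. Tfap2c, shared by trophoblast and germ cells, rose from 0.0739 and 0.152 to 46.9 and 49.6 CPM and Elf5 from 0.48 and 0.579 to 9.03 and 8.61 CPM. Gata4 and Gata6 fell, from 6.02 and 7.56 to 0.225 and 0.328 CPM and from 17.1 and 15.9 to 1.25 and 1.52 CPM. Cdx2, Foxa2 and Afp had too few reads to be tested.

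Sex-linked genes were counted separately. All 4 Y-linked genes fell, among them Eif2s3y from 54.2 and 58.0 to 0.0321 and 0.0253 CPM. Of 8 X-linked genes (Xist and genes that escape silencing) 4 rose: Xist, Kdm6a from 31.3 and 27.4 to 95 and 89.9 CPM, Eif2s3x from 156 and 151 to 370 and 385 CPM, and 5530601H04Rik. Ddx3x was uncalled at 492 and 478 CPM and then 664 and 644 CPM. Across 538 X-linked genes at 1 CPM or more, the median log2 fold change was 0.118, against 0.115 over 14821 autosomal genes, so the X chromosome as a whole did not stand apart in these values.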

How the data were processed

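RNA was measured by stranded mRNA sequencing (TruSeq, HiSeq4000, single 50-nt reads, per the labels' protocols) in 10 libraries, 2 in each of 5 groups. Salmon 0.8.2 and mm10 are named in the submitters' processing notes; the settings are not given in the sources used here. The authors deposited estimated counts (expected counts) per transcript, with TPM values beside them, per the file headers. Estimated counts of 109617 transcripts were summed to 45706 genes and rounded, and 20165 genes passed edgeR's filterByExpr (minimum count 10, total 15). Fits by edgeR 4.0.16 under R 4.3.3 (quasi-likelihood, TMM scaling, the 5 groups sharing a dispersion, no covariate) gave log2 fold changes and Benjamini-Hochberg adjusted p-values; a call needed an adjusted p under 0.05 and a log2 fold change of at least 1 in size. Genes with no reads in a group were given as bounds against 3 reads over the group. Coordinates and biotypes came from GENCODE (GRCm38), which matched 98.8% of genes, and promoters from RefSeq.

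Alternatives used DESeq2 1.42.0, limma 3.58.1 on log2(TPM + 1) and log2(TPM + 0.1), other filters and scalings, a replicate block and each library left out. On simulated counts with 50 changed genes per fold size, edgeR recovered 98% of 4-fold changes, and 7 unchanged genes were called. It recovered 52% of 2-fold changes. Those lie exactly at the fold threshold, so their share does not measure the sensitivity of the test. Replicates differed by more than sampling noise (chi-square per degree of freedom 2.91 in MEF and 3.31 at day 9), so none was merged. Deviations of same-numbered libraries correlated at -0.00215, so the numbers were not taken as pairs. Depth ran from 29585876 to 38275024 reads, and intervals and floors cover counting error only. The members and gene lists were chosen with earlier results of these data known. Named genes were a fixed panel, the 8 largest rises and falls by fold and 6 by CPM, and up to 3 per list and direction with the highest uncalled member; others were chosen after their values were seen. Among the latter are Snai1, Snai2, Zeb1, Zeb2, Krt8, Esrp1, Spint1, Acta2, Jun, Fos, Uhrf1, Tet1, Ezh2, Tgfb1, Tgfb3, Ldha and Vegfa. The 92 symbols shared by several gene identifiers were left out of the lists. Some genes that the naming rule selected are not reported here.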

Additional observations from a re-analysis of the deposited data

How the results depend on the processing

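The counts of called genes moved by over 1.5 times under 3 settings. With a filter of 10 CPM in 2 libraries, 2289 genes were higher and 2470 lower of 11712 tested; fewer genes entered that fit. With limma on log2(TPM + 1) the counts were 2062 and 2563, and with no minimum fold change 8414 and 6684. The other settings gave 3613 to 6241 higher and 3284 to 4270 lower. Leaving out each library in turn gave 4541 to 4628 higher and 3848 to 3930 lower; the lone library of that group is then assumed to vary like the other groups. DESeq2 shifted all genes by -0.144 on the log2 scale and the 4-library fit by -0.135, and 47.8% and 48.8% of their calls were higher. With the replicate number as a block, 4747 genes were higher and 3952 lower, and 8672 of the 8851 calls were shared. As shares of reads in place of TPM, collagens went from 5.33% to 0.147%, contractile genes from 2.42% to 0.419% and ribosomal proteins from 3.58% to 5.13%. The X-linked and autosomal medians were 0.408 and 0.404 with library-size scaling and 0.007 and 0.035 with the stricter filter; with a library left out they ranged from 0.096 to 0.123 and from 0.107 to 0.12. None of the named genes that were called changed direction, and uncalled genes were not counted for this. Of 237 called genes among the 276 named, 25 lost their call in at least 1 setting. With limma on log2(TPM + 1) these were mostly weakly expressed genes, among them Zfp42, Prdm14, Piwil4, Pecam1, Cdh5, Bmp7, Nkx2-3, Fbp1, Fbp2, Ccl8, Ptprc, Csf1r and Adgre1. Id2, mt-Co1, mt-Co3, mt-Nd1, Hspa8, Ddx58 and Oas2 lost it under DESeq2, and Gadd45a and Actg1 with library-size scaling. Of 1036 list counts under alternatives, 91 moved by over 1.5 times. The cause was not tested. Genes at a few reads in a group are limited by depth, and their ratios have wide intervals.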

Other observations

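Several of the most abundant gains lay outside the gene lists, and the genes of this section were chosen after their values were seen. Podxl, the sialomucin podocalyxin of the cell surface, rose from 2.18 and 2.1 CPM in MEFs to 892 and 908 CPM at day 9, with 857 CPM already at day 3 and 20.2 CPM in ESCs. Trh, the thyrotropin-releasing hormone gene, rose from 0.443 and 0.305 to 674 and 671 CPM, with 55.0 CPM in ESCs. Slc7a3, a transporter of cationic amino acids, rose from 49.5 and 50.0 to 576 and 577 CPM. The chaperones Hspa8 and Hsp90aa1 rose from 1250 in both to 2660 and 2670 CPM and from 752 and 758 to 1760 and 1780 CPM, though Hspa8 lost its call under DESeq2 (log2 fold change 0.94). The histone variant gene H2afz rose from 202 and 205 to 775 and 793 CPM. Among the falls, the matrix genes Fbln2 and Tnc went from 4340 and 4300 to 19.9 and 20.5 CPM and from 2840 and 2760 to 32.7 and 31.9 CPM, and Cdh11, a mesenchymal cadherin, from 1480 and 1490 to 1.86 and 1.92 CPM.

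Some genes were high in the induced cells and low at both ends of the series. There were 24 protein-coding genes at 10 CPM or more in all 6 libraries of days 3, 6 and 9 and under 2 CPM in all 4 MEF and ESC libraries. Tac2, a tachykinin gene, was at 0.111 and 0.213 CPM in MEFs and 304 and 305 CPM at day 9, with 0.942 CPM in ESCs. Pllp, plasmolipin, was at 0.111 and 0.244 and then 174 and 175 CPM, with 1.62 CPM in ESCs. Shisa3 was at 1.15 and 1.98 and then 137 and 139 CPM, and the chemokine receptor gene Cxcr4 at 0.923 and 1.01 and then 18.4 and 20.1 CPM. Ehf and Aldh3a1 were also among them. These levels are a description and were not tested across stages.

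Noncoding genes changed too. Platr15 rose from 0.148 and 0.122 to 72.6 and 71.2 CPM and Platr13 from 0.222 and 0.061 to 25.7 and 25.2 CPM. Dnm3os, the host transcript of a microRNA cluster, fell from 171 and 174 to 5.4 and 4.67 CPM. The pseudogene Rps13-ps1 went from no reads to 109 and 107 CPM, with 117 CPM at day 3; it shares sequence with its parent gene, so its reads are uncertain.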
